A study of Mus musculus with 2 samples.

Results

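The genes described here encode nestin, vimentin, the neurofilament subunits and their close relatives, and all are members of the intermediate filament family of cytoskeletal proteins. They are the 8 genes Nes, Vim, Ina, Nefl, Nefm, Nefh, Prph and Synm, chosen by symbol from a table of 45777 mouse genes, and each symbol occurred in 1 row. Their transcripts were measured by RNA-seq in 1 teratoma library from E14 cells and 1 teratoma library from E14-Sox2TA/WT cells. E14 is a mouse embryonic stem cell (ESC) line with wild-type Sox2. The E14-Sox2TA/WT cells are E14 cells in which CRISPR-Cas9 editing changed threonine 258 of Sox2 to alanine on 1 allele, and they were grown from single sorted cells. Both lines were inoculated under the skin of BALB/c-nu mice, 3 per group, and the teratomas were harvested after 14 days. Neither the age of the hosts nor the number of tumours behind each library is given, and host mouse cells in the tumours contribute reads to the same genes.

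Intermediate filaments are rope-like polymers whose subunits change as a cell matures. Neural progenitors assemble filaments of vimentin and nestin, and mesenchymal, endothelial and glial cells also contain vimentin. When neurons are born, α-internexin, encoded by Ina, appears early, and the light, medium and heavy neurofilament subunits, encoded by Nefl, Nefm and Nefh, follow as axons mature. Nefl is the core subunit on which Nefm and Nefh assemble, and the long phosphorylated tails of the latter pair set the spacing of filaments in axons. Prph encodes peripherin, which is found mainly in peripheral neurons and in central neurons with peripheral axons, and Synm encodes synemin, which joins vimentin or desmin filaments, above all in muscle and glia. Nes is also a long-known neural target of Sox2, acting with POU factors on an enhancer inside an intron of Nes.

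The libraries held 50529171 and 49030281 reads on genes, E14 first, so counting error was small for most of the genes. Mitochondrial genes took 5.17% of the summed TPM (a level per transcript length, scaled to a fixed sum in each library) in the E14 teratoma and 9.70% in the other. Reads of 4 Y-linked genes numbered 5453 and 0, a count of 0 allowing up to 3 reads. The 7 pluripotency markers examined were all more than 2-fold higher in the E14-Sox2TA/WT teratoma, with a summed TPM of 76.3 and 1871. The TPM of Sox2 itself was 246 in the E14 teratoma and 130 in the E14-Sox2TA/WT teratoma, and its alleles are not separated. With 1 library per group there is no replicate check and no test in the RNA-seq. The 95% intervals below, computed by the Clopper-Pearson method from read counts, cover counting error only. Apart from the RNA-seq, the paper measured ectoderm genes in teratomas by quantitative PCR, among them Nes, Sox1 and Tubb3. It reports lower expression of the ectoderm genes with E14-Sox2TA/WT cells. In such bulk samples, fewer cells of a type and less RNA per cell cannot be told apart.

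Levels of the genes differed in direction and size between the libraries, and 7 of the 8 had a lower TPM in the E14-Sox2TA/WT teratoma (6 of the 8 with FPKM or library totals, where Nefh turned). Ina fell most, Nefl fell about as far as the threshold of the study's rule, and Prph rose. By this rule, a gene is called where its TPM differs by more than 2-fold and reaches 10 in either library. As applied here, it called 2167 genes lower and 1253 higher in the E14-Sox2TA/WT teratoma. The paper reports fewer in each direction, and the reason for the difference was not tested. Of the 8 genes, 6 reached that TPM and were tested by the rule, 2 of which were lower and 1 higher, whereas 18.7% of all 11578 genes tested were lower and 10.8% were higher. Prph reached the TPM only in the E14-Sox2TA/WT teratoma, so it passed this filter only through the library in which it is high. Nefh and Synm stayed below a TPM of 10 in both libraries. The median log2 ratio of the 8 genes, with 1 added to each TPM, was -0.50, and that of all genes tested was -0.18. The share of all genes with a lower TPM was not computed. Of all genes tested, 43.1% had a lower log2 ratio than Nefm, 43.7% than Synm and 51.7% than Nefh, so these lay near the middle of all genes. For Nefl, Vim and Nes the shares were 16.5%, 25.1% and 27.3%.

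**Figure D1:**
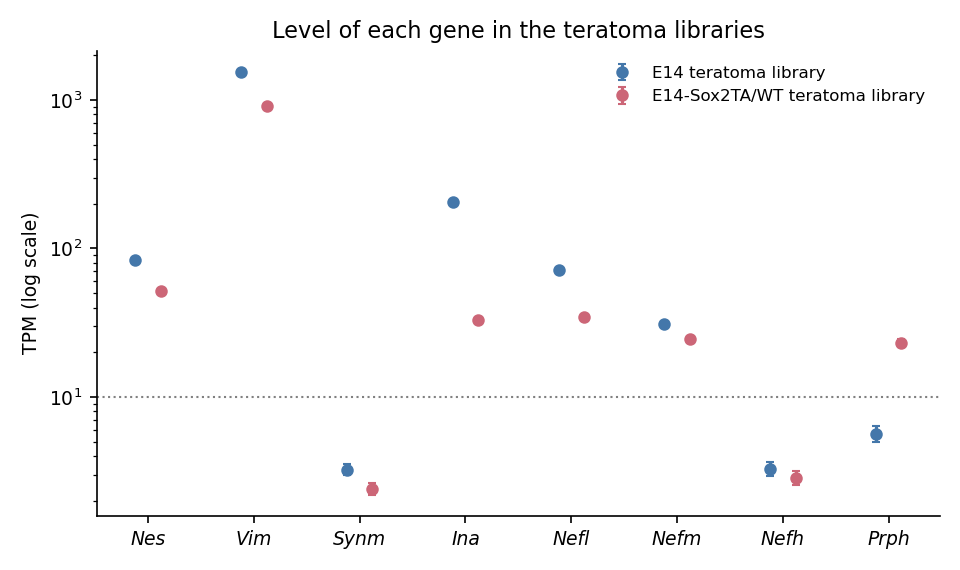
TPM on a log axis of each of the 8 genes in the E14 library (blue) and the E14-Sox2TA/WT library (red), with 95% Poisson intervals of the reads as bars, mostly hidden by the points, and the TPM of 10 dotted. Vim stands above all others in both libraries, Ina drops from 205 to 32.8, and only Prph is higher in the E14-Sox2TA/WT teratoma, at 23.0 against 5.67.

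Vim and Nes were both lower by less than the rule asks. Vim lies on chromosome 2 of GRCm38 from 13574311 to 13582826, and its longest coding transcript has 9 exons. Its TPM was 1530 in the E14 teratoma and 914 in the E14-Sox2TA/WT teratoma, from 67520 and 45036 reads. Vim was thus 1.67-fold lower (1.65 to 1.69), although it kept the highest level of the 8 genes in both libraries. Of the genes tested, 99.2% had a lower TPM than Vim in the E14 teratoma and 98.8% in the other.

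Nes lies on chromosome 3 from 87971093 to 87980451, with 4 exons in its longest coding transcript. Its TPM was 83.8 in the E14 teratoma and 51.8 in the E14-Sox2TA/WT teratoma, from 12348 and 8529 reads. The difference was 1.62-fold (1.57 to 1.66), close to that of Vim, and the order of the libraries was the same for both. The level of Vim over that of Nes was 18.3 in the E14 teratoma and 17.6 in the E14-Sox2TA/WT teratoma, a change of only 1.04-fold (1.005 to 1.07, from a log-scale Poisson interval as for the other such ratios below). Synm, on chromosome 7 from 67730161 to 67759742, was near the bottom at a TPM of 3.24 and 2.42, 1.34-fold lower (1.19 to 1.52).

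Because Nes is a Sox2 target in neural cells, the 250 bases before its RefSeq start are shown, chr3:87970843-87971092 of GRCm38.p6 on the plus strand, with capitals marking matches to ACAAT, the core letters that SOX factors bind, and to GGGCGG, the GC box, on either strand:

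Nes: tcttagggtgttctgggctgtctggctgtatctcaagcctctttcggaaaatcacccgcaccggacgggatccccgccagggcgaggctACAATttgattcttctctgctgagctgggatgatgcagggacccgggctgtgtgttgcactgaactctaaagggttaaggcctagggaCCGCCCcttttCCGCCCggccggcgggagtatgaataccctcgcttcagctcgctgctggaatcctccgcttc

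It holds 1 match to the SOX core and 2 GC boxes. Neither a TATA box, spelled TATAAA, nor the POU octamer, spelled ATGCAAAT and held by 1.60% of promoters, was found there on either strand. Among the 32851 mouse promoters of this length in the same table, 27.7% held the SOX core and 32.7% a GC box on either strand, so such matches are common. The window ends before the gene begins and leaves out the intron enhancer named above, so its matches do not describe that enhancer.

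Ina showed the largest decrease. It lies on chromosome 19 from 47014681 to 47025327 and has 3 exons. Its TPM was 205 in the E14 teratoma and 32.8 in the E14-Sox2TA/WT teratoma, from 16084 and 2870 reads. This made it 6.26-fold lower (6.01 to 6.51), and just 1.45% of all genes tested had a lower log2 ratio. In the E14 teratoma Ina ranked above every other gene of the group except Vim, and in the E14-Sox2TA/WT teratoma it came after Vim, Nes and Nefl. Its span overlaps the opposite-strand gene Nt5c2, a nucleotidase, by 494 bases, and the sources do not say if reads were counted by strand. Nt5c2 had 3440 and 2500 reads, fewer than Ina in both libraries, and a TPM of 31.1 and 21.0.

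The 3 classical neurofilament subunits differed less, and in a graded way. Nefl lies on chromosome 14 from 68083863 to 68089095, with 4 exons. Its TPM was 71.6 in the E14 teratoma and 34.3 in the E14-Sox2TA/WT teratoma, from 5821 and 3117 reads. Nefl was 2.09-fold lower (1.997 to 2.18), so that the lower end of the counting interval fell just short of the rule. With FPKM it was 1.82-fold lower and with edgeR's TMM factors 1.98-fold lower, so the call of Nefl held on TPM but under none of the 5 other scalings tried. Under those scalings, the shares of all genes tested that were lower and higher were 14.3% and 13.7% with FPKM, 14.1% and 13.6% with library totals, and 17% and 11.6% with TMM factors. They were 16.9% and 11.7% with median-of-ratios size factors and 17% and 11.7% with TPM without mitochondrial genes. The calls of Ina and Prph held under all 6. These scalings move all genes by nearly the same factor, and the TPM filter stayed the same throughout. Ina ranged from 5.44-fold to 6.26-fold lower and Prph from 4.07-fold to 4.73-fold higher. Folds this far past the threshold could hardly lose their call, so this is no check of them.

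In RefSeq, Nefm lies 30449 bases beyond the end of Nefl, from 68119545 to 68125004 on the opposite strand, and the GENCODE transcript at that place has 3 exons. A longer GENCODE transcript of Nefm, with 4 exons, runs from 68082590 to 68124846, spans all of Nefl and shares 1108 exon bases with it. This transcript reaches beyond the RefSeq span of Nefm, and 45679 of the 45777 gene identifiers matched RefSeq. If counting included the longer transcript and did not use strand, reads of Nefl and Nefm cannot be told apart in those bases. The TPM of Nefm was 30.9 in the E14 teratoma and 24.5 in the E14-Sox2TA/WT teratoma, from 2399 and 2124 reads, 1.26-fold lower (1.19 to 1.34). Nefm was thus closer to its E14 level than its neighbour Nefl. The Nefm span overlaps the noncoding gene A230070E04Rik by 1253 bases, which had 112 and 26 reads. Nefh, on chromosome 11 from 4938754 to 4948064, was low in both libraries, at a TPM of 3.27 and 2.86 from 315 and 307 reads. Its difference of 1.15-fold lower was within counting error (0.975 to 1.34), and its direction turned with FPKM and with library totals. Nefh overlaps Ap1b1, an adaptor protein gene, by 745 bases, and Gm35321 by 4484 bases. Ap1b1 had 5542 and 4106 reads, far more than Nefh, so the reads of Nefh are uncertain if strand was not used.

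The balance among the 4 transcripts Ina, Nefl, Nefm and Nefh therefore differed between the libraries, and the kind of neuron they came from was not tested. Their summed TPM was 311 in the E14 teratoma and 94.4 in the E14-Sox2TA/WT teratoma. Ina held 66.0% of that sum in the E14 teratoma and 34.7% in the E14-Sox2TA/WT teratoma. Nefl held 23.0% and 36.3%, Nefm 9.93% and 25.9%, and Nefh 1.05% and 3.03%. The level of Ina was 2.87 times that of Nefl in the E14 teratoma and 0.956 times in the E14-Sox2TA/WT teratoma. That ratio was 3.0005-fold lower (2.83 to 3.18), and it does not depend on how the libraries were scaled to each other. The ratio of Nefl to Nefm was 1.65-fold lower (1.54 to 1.78), with the limit of the shared exon bases given above. For Nefm over Nefh the change was 1.10-fold (0.931 to 1.30), which was within counting error. Read in the order Ina, Nefl, Nefm and Nefh, the decrease became smaller at each step, but the last step was not resolved by the counts.

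**Figure D2:**
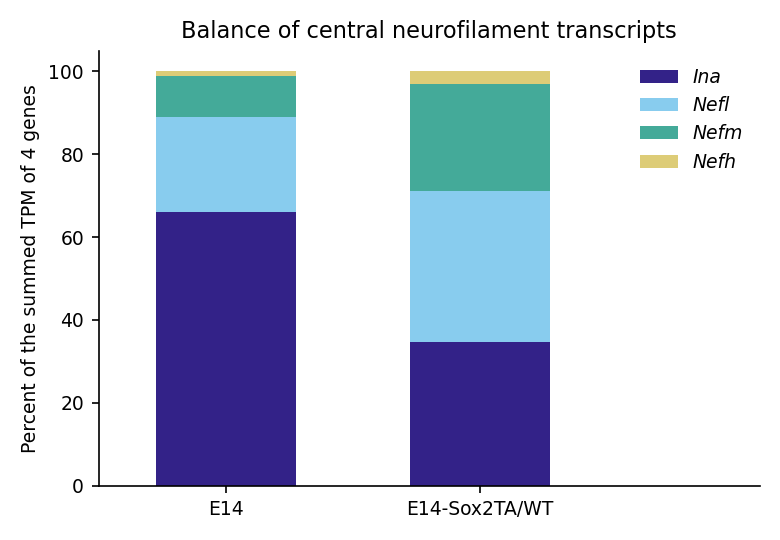
Share of the summed TPM of Ina, Nefl, Nefm and Nefh held by each gene, in percent, in the E14 and the E14-Sox2TA/WT library, with 1 library per bar. Ina goes from 66.0% to 34.7% of the sum, and the share of Nefm goes from 9.93% to 25.9%.

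Prph was the exception to the direction of the group. Its RefSeq span lies on chromosome 15 from 99053579 to 99058978, with 8 exons in its longest coding transcript. Its TPM was 5.67 in the E14 teratoma and 23.0 in the E14-Sox2TA/WT teratoma, from 245 and 1124 reads. Prph was 4.07-fold higher (3.54 to 4.69), and 95.9% of the genes tested had a lower log2 ratio. Over the 475 genes tested on chromosome 15, the median log2 ratio lay 0.46 above that of all genes tested, whereas Prph stood at 2.03 on that relative scale. Whether the shift of the chromosome has a part in the value of Prph was not tested. For the other 7 genes, the medians of their chromosomes on the same scale lay between -0.096 and 0.14. Relative to Nefl, the level of Prph was 0.0792 in the E14 teratoma and 0.672 in the E14-Sox2TA/WT teratoma, an 8.48-fold higher ratio (7.34 to 9.80).

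The promoters of Ina and Prph are shown because these genes had the largest decrease and the largest increase of the group. Each is the 250 bases before a RefSeq transcript start, on the plus strand of GRCm38.p6, chr19:47014431-47014680 for Ina and chr15:99054924-99055173 for Prph. For Prph this start, where a GENCODE transcript also begins, lies 1595 bases inside the RefSeq span given above, whereas for Nes and Ina it is the start of the span. Capitals mark the TATA box and the GC box on either strand, which do not overlap:

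Ina: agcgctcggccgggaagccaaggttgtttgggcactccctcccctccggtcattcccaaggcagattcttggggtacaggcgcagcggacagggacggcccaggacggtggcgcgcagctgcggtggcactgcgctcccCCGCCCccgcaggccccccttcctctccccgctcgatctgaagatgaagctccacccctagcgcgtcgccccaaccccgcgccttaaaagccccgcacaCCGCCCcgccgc
Prph: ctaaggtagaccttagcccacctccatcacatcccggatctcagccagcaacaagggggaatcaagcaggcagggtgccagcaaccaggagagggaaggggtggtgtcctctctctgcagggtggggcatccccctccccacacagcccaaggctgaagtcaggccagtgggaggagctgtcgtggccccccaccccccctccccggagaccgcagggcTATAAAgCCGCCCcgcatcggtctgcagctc

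The Prph window holds a TATA box that begins 31 bases before the start, which 12.4% of the promoters of this length hold, as well as 1 GC box. The Ina window holds no TATA box and 2 GC boxes, with a GC content of 70.8% against 65.2% for Prph. It also has 25 CpG dinucleotides, and the Prph window has 7, while the median over all promoters was 6. Neither window held the SOX core or the octamer as spelled above. These are descriptions of letters only. Promoters of 5 of the 8 genes were matched in the table by symbol.

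The order of the levels also shifted. In the E14 teratoma it was Vim, Ina, Nes, Nefl, Nefm, Prph, Nefh and Synm, and only Nefh and Synm, at 3.27 and 3.24, did not differ beyond their 95% Poisson counting intervals. In the E14-Sox2TA/WT teratoma the order was Vim, Nes, Nefl, Ina, Nefm, Prph, Nefh and Synm. There, the neighbours Nefl and Ina, at 34.3 and 32.8, did not differ beyond counting error. The same was true of Nefm and Prph, at 24.5 and 23.0, and of Nefh and Synm, at 2.86 and 2.42. The levels of Nes, Nefl, Ina, Nefm and Prph, which ran from 205 down to 5.67 in the E14 library, lay between 51.8 and 23.0 in the E14-Sox2TA/WT teratoma.

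**Figure D3:**
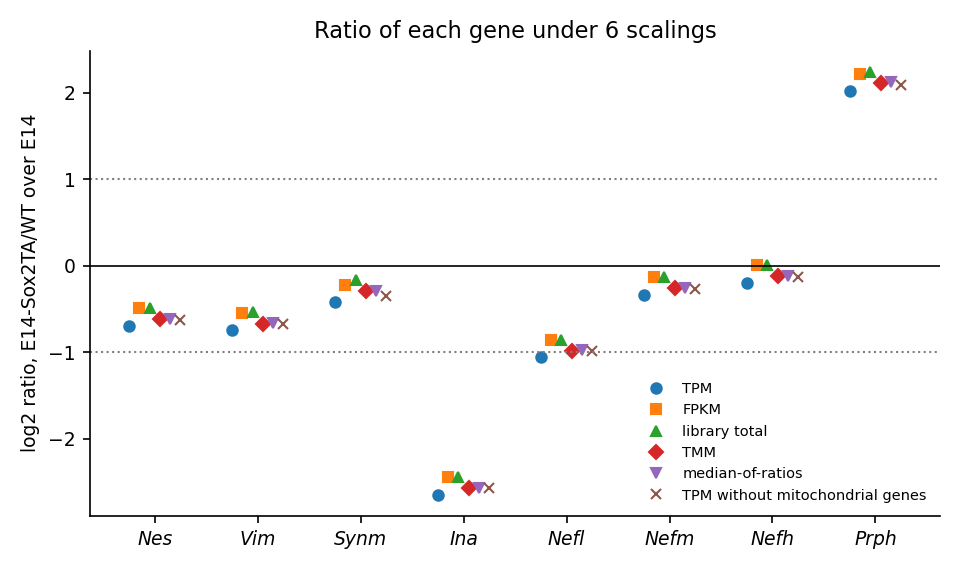
log2 ratio of each gene, E14-Sox2TA/WT over E14 with no pseudocount, under the 6 scalings of the libraries named in the legend, with the 2-fold thresholds dotted. Ina stays below and Prph above its threshold under every scaling, Nefl lies on either side of it, and Nefh is at 0.0033 with FPKM and 0.0063 with library totals.

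Other neuronal transcripts were set beside the neurofilament genes. For this list and those that follow, 18.7% of all genes tested were lower by the rule and 10.8% higher. All 10 neuron markers were lower by the rule, and 9 with FPKM, and their summed TPM was 3121 in the E14 teratoma and 498 in the E14-Sox2TA/WT teratoma. Tubb3, a neuronal tubulin, went from a TPM of 1722 to 170, Stmn2, a microtubule regulator of growing axons, from 451 to 121, and Syt1, a synaptic vesicle calcium sensor, from 50.8 to 5.53. The markers had log2 ratios from -3.33 to -1.15, with 1 added to each TPM. On this scale Ina, at -2.61, lay inside that range, with 3 markers lower and 7 higher than it. Nefl, at -1.04, Nefm, at -0.32, and Nefh, at -0.15, all lay above the 10 markers.

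Expressed as a percent of the summed TPM of the neuron markers, Ina stood at 6.58% in the E14 teratoma and 6.59% in the E14-Sox2TA/WT teratoma. This near-equality rested on Tubb3, a chromosome 8 gene, and the median of that chromosome stood at -0.49 on the relative log2 scale used above. Whether the shift of that chromosome has a part in the value of Tubb3 was not tested. Over the 9 other markers, an alternative chosen after seeing the data, Ina stood at 14.7% and 10.02%. Nefl stood at 2.29% and 6.90% of all 10 markers, Nefm at 0.989% and 4.92%, and Nefh at 0.105% and 0.575%. Without Tubb3 the corresponding values were 5.12% and 10.5% for Nefl and 2.21% and 7.48% for Nefm. Relative to neuron markers, Nefl and Nefm were thus higher in the E14-Sox2TA/WT teratoma with or without Tubb3.

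Peripheral neurons are where peripherin is best known, and their markers were low in both libraries. Only 1 of the 10 reached a TPM of 10, Isl1, a LIM homeobox factor of motor and sensory neurons, which fell from 19.7 to 7.04. Over the whole list, the summed TPM was 40.2 and 37.4, 4 genes were lower and 6 higher, and log2 ratios ran from -1.37 to 1.42. Ret, a receptor of enteric and sympathetic neurons, had a TPM of 3.13 and 6.28, and Th, the rate-limiting enzyme of catecholamine synthesis, 6.47 and 7.76. The 3 genes that follow are named after their values were seen. Dbh, which makes noradrenaline, had 0 reads in the E14 library, which allows up to 3, and 28 in the other. Chrna3, a nicotinic receptor subunit of autonomic ganglia, had a TPM of 0.976 and 4.30, while Prdm12, a factor of pain-sensing neurons, had 1.70 and 0.236. None of the 6 motor neuron markers reached a TPM of 10. Their summed TPM was 7.62 and 5.49, and Slc18a3, which loads acetylcholine into vesicles, had a TPM of 2.65 and 1.32. The part of these cells in the rise of Prph was not tested.

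Markers of the cells that carry nestin and vimentin moved in several directions. Of the 6 neural progenitor markers, 5 were tested and all 5 fell (4 with library totals), with a summed TPM of 2821 and 812. Fabp7, a lipid carrier of radial glia, went from a TPM of 2497 to 708, Msi1, an RNA-binding protein of progenitors, from 176 to 65.2, and Sox1, a close relative of Sox2, from 48.3 to 9.55. Nes, at a log2 ratio of -0.68, was closer to 0 than any of the 6, which ran from -2.23 to -1.30. The lowest of them, Sox1, lies on chromosome 8 like Tubb3, and the part of that chromosome's shift was not tested. In the glial lineage list 4 of 6 genes fell by the rule and all 6 had a ratio below 1, with Slc1a3, an astrocyte glutamate transporter, at a TPM of 262 and 76.5. Mesenchyme, a main source of vimentin, went the other way, as 5 of 10 markers rose by the rule and all 10 had a ratio above 1. Col1a2 and Col3a1, fibrillar collagens, had a TPM of 71.6 and 249, and of 172 and 472. Dcn, the mesenchyme marker with the highest TPM in the E14 teratoma, had 232 and 382 and was not called. The 6 macrophage markers had a summed TPM of 798 and 1414, and all 6 had a ratio above 1. Of these, 1, Lyz2, was higher by the rule, against 10.8% of all genes tested. None of the 3 endothelium markers tested was called. The level of Vim is a sum over all such cells, and the part of each was not tested.

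None of the other intermediate filament genes outside the keratins that could be tested passed the rule. Of the 10, 6 were tested and 0 were called, against 29.5% of all genes tested. Gfap, the filament protein of astrocytes, had a TPM of 137 and 76.4, 1.79-fold lower (1.73 to 1.86), close to Nes and Vim. Des, the filament protein of muscle, had 10.1 and 8.79. The skeletal muscle markers beside it had a summed TPM of 311 and 174, and all 6 had a ratio below 1. Of these, 2 were lower by the rule, against 18.7% of all genes tested. Of the nuclear lamins, Lmna, typical of stiff and mature tissues, had a TPM of 33.1 and 52.3, Lmnb1 142 and 149, and Lmnb2 37.2 and 27.5. Iffo1 went from 15.9 to 8.61, while Iffo2, Bfsp1, Bfsp2 and Sync stayed under 10 in both libraries and were not tested. Below that TPM, Bfsp1 was 2.28-fold higher (1.64 to 3.22) in the E14-Sox2TA/WT teratoma. Bfsp2 was 1.52-fold and Sync 1.46-fold higher and Iffo2 1.04-fold lower, each within counting error.

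Genes whose proteins carry, modify or link neurofilaments differed between lists. In the transport list, 5 of 6 genes fell (4 with FPKM), with a median log2 ratio of -1.59. Kif5a and Kif5c, neuronal kinesin motors that move neurofilaments along axons, went from a TPM of 47.2 to 11.8 and from 104 to 21.6. Dync1h1, the dynein heavy chain, went from 115 to 36.6 and Klc1, a kinesin light chain, from 207 to 69.9. The exception, Kif5b, a kinesin of most cell types named after its values were seen, had 52.1 and 54.6. In the list of kinases and phosphatases, 5 of 9 fell (3 with FPKM) and 8 of the 9 had a ratio below 1, with a median log2 ratio of -0.999. Cdk5r1 and Cdk5r2, the neuronal activators of the neurofilament kinase Cdk5, went from a TPM of 95.5 to 7.99 and from 32.7 to 5.31. Mapk3 had 196 and 145, and Ppp2ca, a phosphatase subunit of all cells, 340.4 and 319.

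Of the 6 linkers, 4 were tested, of which 2 fell by the rule (1 with library totals) and 0 rose by it, but 4 of the 6 had a ratio above 1, and the median log2 ratio of the 6 was 0.11. Those that fell were Macf1 and Dst, giant proteins that tie filaments to other parts of the cytoskeleton. Macf1 had a TPM of 54.3 and 19.3, and Dst had 34.1 and 14.7. Plec, or plectin, the main linker of vimentin, had 14.92 and 14.995. Ppl, or periplakin, named after its values were seen, had 3.40 and 7.41, a 2.18-fold higher level (1.97 to 2.42) below the TPM the rule asks. In the turnover list, 7 of 8 genes were tested, of which 1 fell and 1 rose, and 4 of the 8 had a ratio below 1. Over all genes tested, 18.7% fell and 10.8% rose, and 1 of 7 lies near both. Trim2, a ubiquitin ligase that acts on the Nefl protein, fell from a TPM of 37.8 to 12.4, and Hspb1, a small heat shock protein that guards filament assembly, rose from 62.6 to 215.

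**Figure D4:**
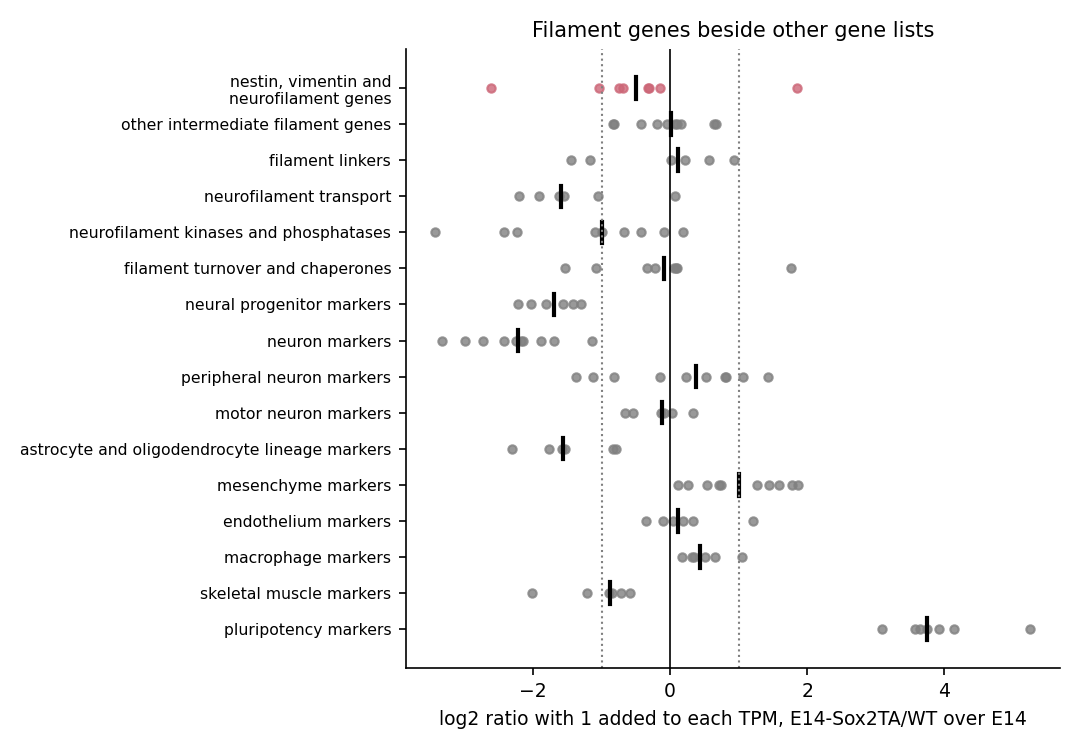
log2 ratio of single genes (points) with 1 added to each TPM, E14-Sox2TA/WT over E14, for the nestin, vimentin and neurofilament genes (red) and for the other gene lists (grey), with black bars at list medians and dotted lines at 2-fold. The red points run from -2.61 for Ina to 1.85 for Prph around a median of -0.50, the neuron markers all lie at or below -1.15, and the pluripotency markers lie at or above 3.09.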

How the data were processed

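RNA-seq was analysed for 1 E14 and 1 E14-Sox2TA/WT teratoma library. Per the labels, processing used bcl2fastq 2.20.0, Trimmomatic, HISAT2 2.1.0 and StringTie 2.1.3b on mm10, without stated roles or strand setting. The table deposited by the authors gives unnormalized read counts, FPKM, scaled for transcript length and library size, and TPM, whose sum is fixed in each library.

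From these, the TPM ratio of each gene was computed, with a Clopper-Pearson interval of its read counts. The rule for DEGs given in the study's methods was applied to the whole table, where it called more genes than the paper reports. No p-value was computed. Gene positions and promoters came from RefSeq on GRCm38.p6, the same build, and exons from GENCODE M21. The genes and lists were chosen with earlier results of these data known. Genes named were all 8 genes described and the other intermediate filament genes. In each other list, up to 3 with the highest TPM and up to 2 with the largest change were picked, and not all of these are named. Genes outside these picks are marked as named after their values were seen. Alternatives covered scaling, fold, filter and pseudocount. Scripts were tested on simulated data. The software was edgeR 4.0.16 in R 4.3.3, with scipy 1.17.1, pandas 2.3.3 and numpy 2.4.6 in Python 3.11.15.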

Additional observations from a re-analysis of the deposited data

How the results depend on the processing

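No paired analysis was possible because each group has a single library, which also means that none could be left out. The number of higher genes, 1, stayed at 1 under every alternative except without chromosome 15, which holds Prph, where it was 0. With Prph at 4.07-fold (3.54 to 4.69), the other alternatives could hardly have removed it, so they are no check of this count. The number of lower genes, 2, was 1 with FPKM, library totals, TMM factors, median-of-ratios size factors, TPM without mitochondrial genes, a fold above 3, the whole counting interval beyond 2-fold and folds relative to the median of all genes tested, Nefl being the gene lost. It was 4 at a fold above 1.5 and stayed at 2 with the other TPM filters. For the alternatives other than scaling, the share of all genes called was not computed. Those counts therefore cannot be read against a background. The median log2 ratio of the 8 genes, -0.50, was -0.33 with FPKM, -0.31 with library totals, -0.43 with TMM factors, -0.42 with median-of-ratios size factors, -0.44 without mitochondrial genes, -0.71 over the 6 genes that reached a TPM of 10, -0.32 relative to all genes tested and -0.68 without chromosome 15. Beyond scaling and fewer genes, the cause was not tested. The log2 ratio of Nefh, not called, was 0.0033 with FPKM and 0.0063 with library totals. The alternatives without chromosome 15 and for folds relative to the median were chosen after seeing the data.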

Other observations

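Around Nefl and Nefm on chromosome 14, the nearest annotated protein-coding genes were low in both libraries. Before Nefl, Dock5, a guanine exchange factor, stood at a TPM of 2.64 in the E14 teratoma and 5.41 in the E14-Sox2TA/WT teratoma, and Gnrh1, the gonadotropin-releasing hormone gene, had 0.678 and 1.26. Beyond Nefm, Adam7 had 0 and 5 reads and Adamdec1 a TPM of 3.13 and 5.03. None of these 4 neighbours reached a TPM of 10, and none was lower in the E14-Sox2TA/WT teratoma, whereas Nefl was.

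Over the 2 libraries, the genes whose levels lay closest to those of a member, by Euclidean distance of log2 values with 1 added to each TPM, were Stmn4 and Ttyh1 for Ina, at distances of 0.027 and 0.15. Stmn4 had a TPM of 209 and 32.8, and Ttyh1 had 226 and 34.4. For Prph they were Dctd and Hsd17b14, at 0.057 and 0.068, and for Nefl they were Lztr1 and Lonp2, at 0.018 and 0.023. With 2 points per gene, such likeness is a description of level and ratio only.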
